A study of Saccharomyces cerevisiae with 3 samples.

Results

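The genes described are those encoding the proteins of the cytosolic ribosome of the budding yeast Saccharomyces cerevisiae. They were chosen by name alone, as genes called RPL or RPS with a number and an optional copy letter A or B, together with the stalk genes RPP0, RPP1A, RPP1B, RPP2A and RPP2B. By this rule 131 of the 5777 genes on the array were members, 73 of the large subunit, 53 of the small subunit and 5 of the stalk. The RefSeq gene table holds 137 such names, and the 6 not analysed here are RPL35A, RPL41A, RPL41B, RPS28A, RPS30A and RPS30B.

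A yeast ribosome joins each of its proteins to ribosomal RNA in a small and a large subunit, and many of these proteins are encoded by a pair of duplicated genes, the A and B copies. Their promoters are driven together by Rap1, Fhl1, Ifh1 and Sfp1 under the control of nutrient signalling, so the genes are known for moving as a block. Zuo1 and Ssz1 form the ribosome-associated complex, which sits near the tunnel through which the new chain leaves the large subunit, where Zuo1 contacts Rpl31. Both proteins are also known to activate the transcription factor Pdr1.

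Each group was 1 one-colour NimbleGen array, labelled with Cy3, of RNA pooled from 3 biological replicates. All groups were strain DS10 in log phase in medium lacking leucine, each with a pRS415 plasmid that carries the GPD promoter. The plasmid of the control, called vector here, is labelled GPD-TAP, and what TAP makes there is not stated, so each ratio is relative to that plasmid. The others carried Ssz1 S295F or amino acids 365 to 433 of Zuo1 with S427G (the Zuo1 fragment). The sample title of every group begins with WT, for wild type. The native SSZ1 and ZUO1 genes were not labelled as deleted in any group, so each construct is read as added to them. The SSZ1 probes read 10279 for vector, 19318 for the Ssz1 S295F plasmid and 12001 for the Zuo1 fragment, highest where Ssz1 was on the plasmid. ZUO1 read 13337, 13744 and 12935, and since the places of its probes are not known here it does not check the fragment.

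Values are linear intensities deposited after RMA, with 3 values per gene on an array, 1 for each of 3 blocks. An intensity given for an array is the geometric mean of its blocks. A log2 ratio is the difference of mean log2 intensity between arrays, and the number after ± is its SD across the 3 blocks. That SD holds the noise inside the arrays compared and leaves out that between cultures and hybridisations. With 1 array per group no test was possible, so no p-value is given and each difference compares these arrays. Past 2-fold means a log2 ratio of at least 1 in size, a limit on size and no test. Both comparisons with vector use the same vector array.

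The ribosomal protein genes stayed close together and close to the middle of the transcriptome on both construct arrays. No member passed 2-fold in any comparison. Of all genes, 5.02% were past 2-fold higher and 2.77% past 2-fold lower with Ssz1 S295F. For the Zuo1 fragment these shares were 3.64% and 0.866%, and between the constructs they were 0.138% in each direction. Past 1.5-fold there was 1 member, RPL15B, which was lower in both comparisons with vector, where 13.1% of all genes were past 1.5-fold lower for Ssz1 S295F and 7.17% for the Zuo1 fragment. None was past 1.5-fold higher, against 10.2% and 7.6% of all genes, and none passed 1.5-fold between the constructs, against 0.675% higher and 1.38% lower.

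The median member had a log2 ratio of -0.18 with Ssz1 S295F, or 0.884 of the vector intensity, and of -0.091 with the Zuo1 fragment, or 0.939 of it. The median of all genes was itself at -0.15 and -0.12. Relative to that, the median member was 0.029 lower with Ssz1 S295F (-0.029) and 0.032 higher with the Zuo1 fragment. The sign of the second value therefore depends on the centre chosen. With Ssz1 S295F, 124 of 131 members were lower than vector in each of the 3 blocks, against 61.1% of all genes. For the Zuo1 fragment 114 members were, against 62% of all genes. Members higher in each block numbered 1 (30% of all genes) and 7 (28.1% of all genes).

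The members differed less from each other than other genes did. The interquartile range of their log2 ratios was 0.082 for Ssz1 S295F and 0.063 for the Zuo1 fragment. Over all genes it was 0.52 and 0.40. The median block SD of a member's ratio was 0.031 and 0.025, so part of the spread among members is of the size of the noise within arrays. Members with large intensities lay close to the median, as the plot of ratio against level shows.

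**Figure D1:**
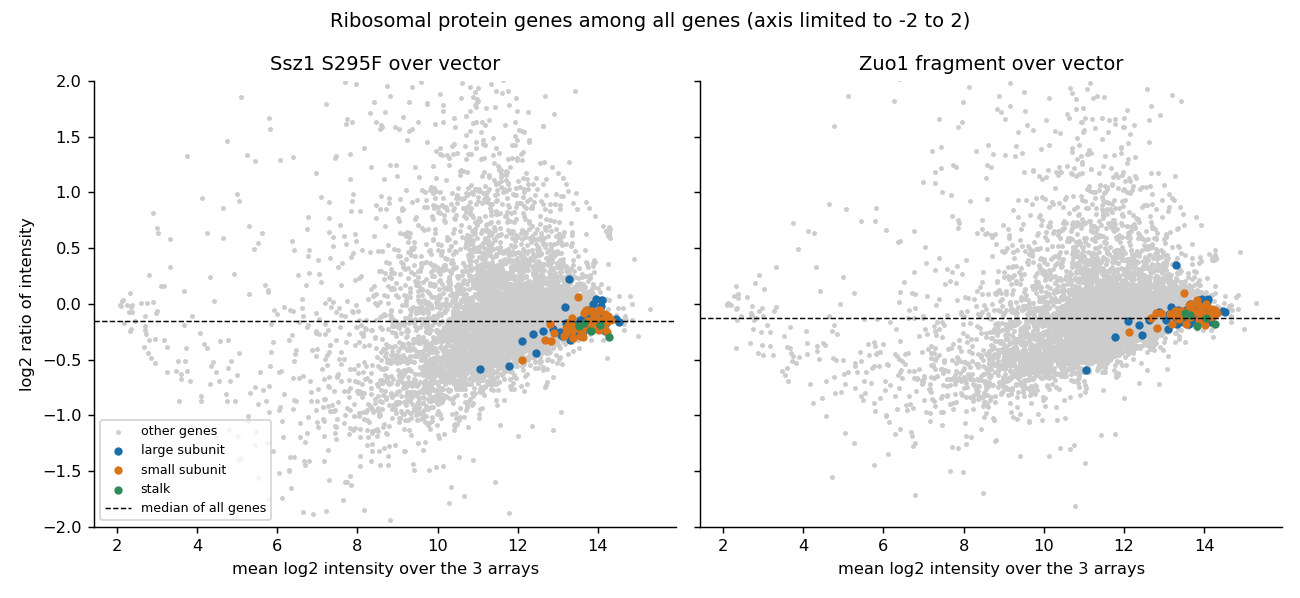
Log2 ratio to vector (vertical axis, limited to -2 to 2) against mean log2 intensity over the 3 arrays (horizontal axis) for all genes in grey and for members in colour by subunit, with the median of all genes dashed. The members form a narrow band at the bright end, with the medians -0.18 and -0.091, and RPL31B lies above it and RPL15B below it in both panels.

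Signal level went with these ratios among the members, and gene length did so only weakly. The median member read 13915 for vector, 12492 for Ssz1 S295F and 13181 for the Zuo1 fragment, and 118, 112 and 117 members lay at or above the 90th percentile of their array. No member lay below the 5th percentile of any array. Signal here stands for the brightness of a gene's own probes and not for its abundance beside other genes. Across the 131 members, the ratio to vector had a Spearman correlation with mean level of 0.55 for Ssz1 S295F and 0.30 for the Zuo1 fragment, given as a description since the level is computed from the same arrays. With span the Spearman correlation over the same members was 0.21 and 0.12. The dimmest 33 members had medians of -0.25 and -0.12, and the brightest 33 had -0.16 and -0.069. The part of level in the ratios was not tested.

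Genes of like level and length were used as a further reference. They were the 296 other genes with a mean intensity from 6428 to 19058 and a span from 324 to 1100 bp, which are the 5th and 95th percentiles of the members. Their median log2 ratio was -0.18 for Ssz1 S295F and -0.13 for the Zuo1 fragment. The median member was thus 0.0012 above them with Ssz1 S295F, less than the SD of that difference over blocks, and 0.038 above them with the Zuo1 fragment. In a narrower window, from the 10th to the 90th percentile, these distances were -0.032 and 0.013. Their interquartile ranges were 0.16 and 0.13, so the members were also closer to each other than genes of like level and length were. Few of these 296 genes passed 2-fold either. With Ssz1 S295F 1 was past 2-fold higher and 1 lower, with the Zuo1 fragment 1 was higher and 0 lower, and between the constructs 0 passed. The like genes were dimmer within the window than the members, with a median log2 level of 13.05 against 13.67. Averaged over blocks, 271 of the 296 like genes were below vector for Ssz1 S295F and 266 for the Zuo1 fragment. Of the 131 members, 126 and 122 were. A value below vector was thus shared by most genes of like level and length.

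The length used here is the span from start to stop codon and holds any intron. Of the members, 56 of 131 or 42.7% had a span that is not a multiple of 3, which an uninterrupted reading frame cannot have, against 3.57% of all genes. Introns are known to be common in yeast ribosomal protein genes and rare elsewhere in this genome, so spans overstate the coding length of such members. Members with such a span had a median of -0.19 for Ssz1 S295F and -0.10 for the Zuo1 fragment, and the other 75 had -0.17 and -0.082. After a smooth trend on span over all genes was subtracted, the median member was above 0 in both comparisons, at 0.16 and 0.19, and 122 and 127 of the 131 members were above 0. The direction of the members as a group against vector therefore depends on whether that trend is removed. Genes of like level and length turned with them, since the distance of the median member from their median was then -0.021 for Ssz1 S295F and 0.042 for the Zuo1 fragment.

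Between subunits there was little difference. With Ssz1 S295F the median was -0.18 for both the large and the small subunit. For the Zuo1 fragment it was -0.091 for the large and -0.082 for the small subunit. The 5 genes of the stalk, the flexible arm of the large subunit that recruits translation factors, had medians of -0.20 and -0.13. RPP0, which anchors the stalk, read 18287 with vector, 16054 for Ssz1 S295F and 16712 for the Zuo1 fragment (-0.19 ± 0.020 and -0.13 ± 0.032). The acidic stalk proteins are encoded by the other four, of which RPP2B had the lowest ratio with Ssz1 S295F, at -0.30 ± 0.038, and RPP1B the lowest with the Zuo1 fragment, at -0.20 ± 0.012. RPP1A was at -0.17 ± 0.035 and -0.10 ± 0.047, and RPP2A at -0.20 ± 0.018 and -0.082 ± 0.0086. All 5 were below vector in both comparisons as deposited and all 5 above 0 once the trend on span was subtracted, and 0 of 5 were above the median of all genes for Ssz1 S295F and 2 of 5 for the Zuo1 fragment.

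RPL31B had the highest ratio of all members in both comparisons with vector. It encodes one copy of Rpl31 (YLR406C, chromosome XII, 931064 to 931754 in the coordinates of the array file, which date from 2008). Its intensity was 8738 with vector, 10223 for Ssz1 S295F and 11142 for the Zuo1 fragment. Its log2 ratios were 0.23 ± 0.054 and 0.35 ± 0.037, or 1.17 and 1.28 times vector. The lowest block on a construct array, 9648, was above the highest vector block, 8814, so the blocks of vector did not overlap those of either construct. RPL31B was above vector under each scaling tried, with values of 0.22 to 0.62 for Ssz1 S295F, then 0.34 to 0.65 for the Zuo1 fragment.

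The other copy, RPL31A (YDL075W, chromosome IV, 322226 to 322988), was below vector as deposited, but came to 0.19 and 0.17 after the trend on span was subtracted, and to -0.027 and 0.0051 after centring. It read 11565 with vector, 10234 for Ssz1 S295F and 10653 for the Zuo1 fragment, ratios of -0.18 ± 0.039 and -0.12 ± 0.026. The A copy minus the B copy was -0.40 ± 0.076 and -0.47 ± 0.058. A difference between copies within a comparison does not depend on the centre of the ratios. The array annotation calls the proteins nearly identical, and how far the probes of each gene also bind the other transcript is not known here.

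Few other members were above vector. RPS12, of the small subunit, was at 0.058 ± 0.055 for Ssz1 S295F and 0.096 ± 0.025 for the Zuo1 fragment. RPL5, which binds the 5S ribosomal RNA, was at 0.042 ± 0.053 and 0.048 ± 0.022. RPL3, near the peptidyl transferase centre, was at 0.035 ± 0.060 and 0.044 ± 0.020, and RPL2A at 0.0029 ± 0.013 and 0.038 ± 0.015. With Ssz1 S295F these 4 values are about the size of their block SDs or below, and RPL2B, the sixth, was at -0.016 ± 0.060. For the Zuo1 fragment RPS23B was the sixth, at 0.036 ± 0.033. In all, 5 members were above 0 for Ssz1 S295F and 9 for the Zuo1 fragment, where 1975 and 1879 of all 5777 genes were. After centring on all genes, 38 and 99 members were above 0.

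**Figure D2:**
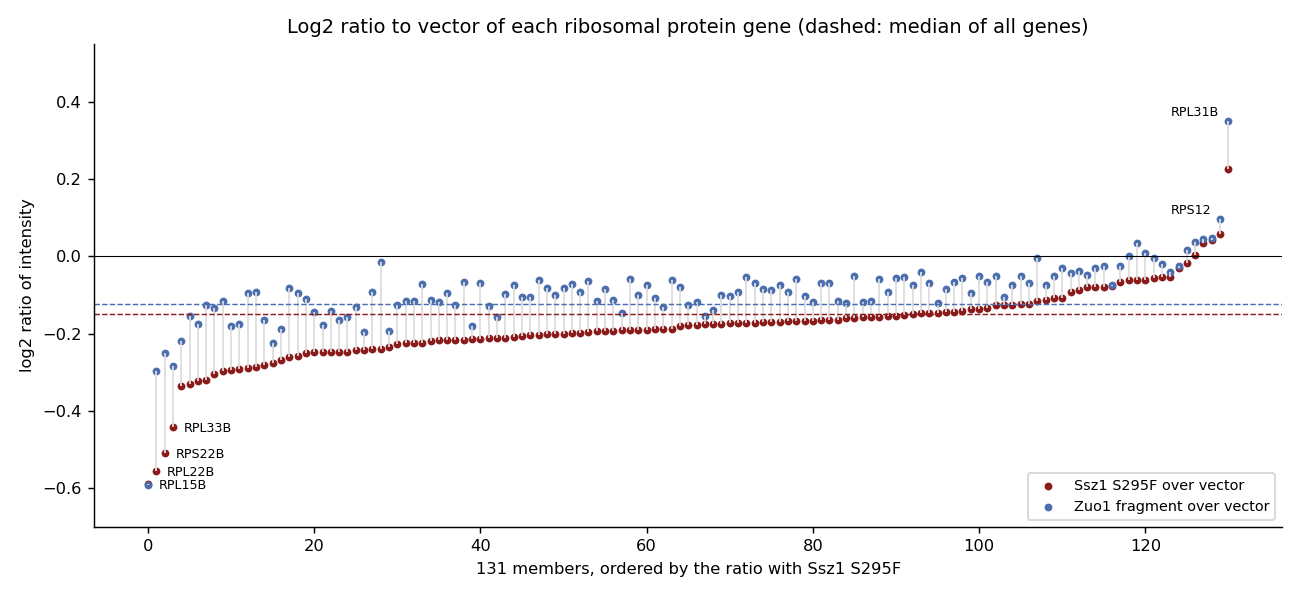
Log2 ratio to vector (vertical axis) of the 131 members, ordered along the horizontal axis by their ratio with Ssz1 S295F (red points), with the ratio with the Zuo1 fragment in blue and the median of all genes dashed in the same colours. Most members lie between -0.3 and 0 in a smooth run, 4 B copies stand below it and RPL31B stands above it.

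At the low end stood a group of B copies with dim signals. RPL15B encodes a copy of Rpl15, a protein of the large subunit (YMR121C, chromosome XIII, 509733 to 510347) and read 2815 with vector, 1872 for Ssz1 S295F and 1866 for the Zuo1 fragment. These are ratios of -0.59 ± 0.025 and -0.59 ± 0.017, or 0.665 and 0.663 of vector. It was the dimmest member and the lowest in both comparisons. It was also the only member whose ratio between the constructs was below 0, at -0.0046 ± 0.023, which is within the block SD.

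RPL22B (YFL034C-A, chromosome VI, 64242 to 64931), whose own splicing is known to be held back by Rpl22, read 4252, 2893 and 3463 in the same order of arrays. Its ratios were -0.56 ± 0.026 for Ssz1 S295F and -0.30 ± 0.025 for the Zuo1 fragment. RPS22B (YLR367W, chromosome XII, 856441 to 857316) read 5294, 3723 and 4448, with ratios of -0.51 ± 0.042 and -0.25 ± 0.032. RPL33B was at -0.44 ± 0.048 and -0.28 ± 0.030. These 3 were thus further from vector with Ssz1 S295F than with the Zuo1 fragment, unlike RPL15B.

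The next lowest were RPS14B (-0.33 ± 0.12) and RPL36A (-0.33 ± 0.053) with Ssz1 S295F, and RPL37A (-0.22 ± 0.0096) and RPS14B (-0.22 ± 0.029) with the Zuo1 fragment. RPS14B is another gene known to be repressed by its own product. The large block SD of RPS14B with Ssz1 S295F makes its place in the order uncertain. RPL30, known for the same kind of feedback, was inside the main group at -0.21 ± 0.044 and -0.13 ± 0.038. The low values of RPL15B, RPL22B, RPS22B and RPL33B kept their sign with Ssz1 S295F under each scaling tried. Once the trend on span was subtracted, RPS14B came to 0.0026 and 0.052, RPL36A to 0.032 and 0.13, and RPL37A to 0.15 and 0.095. With the Zuo1 fragment, RPL22B and RPS22B came to 0.0086 and 0.0061 once the trend on span was subtracted, and RPL15B and RPL33B stayed below 0, at -0.27 and -0.019.

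Both copies were measured for 55 pairs, and RPL31B at the high end and RPL15B, RPL22B and RPS22B at the low end lay apart from their other copies. The next highest members, RPS12, RPL5 and RPL3, have no copy letter, and RPL2A and RPL2B lay side by side with Ssz1 S295F. For the Zuo1 fragment RPL2A was at 0.038 and RPL2B at 0.017. RPL15A read 14002, 12591 and 13460, ratios of -0.15 ± 0.017 and -0.057 ± 0.019, so RPL15A minus RPL15B was 0.44 ± 0.037 and 0.54 ± 0.030. RPL22A was at -0.19 and -0.057, a difference from RPL22B of 0.36 ± 0.025 and 0.24 ± 0.017. RPS22A was at -0.20 and -0.065, a difference from RPS22B of 0.31 ± 0.045 and 0.19 ± 0.034. In each of these pairs the A copy lay within the main group of members and the B copy below it. The B copies had the dimmer signals, and the differences were smaller once a smooth trend on mean level was subtracted. With Ssz1 S295F, RPL15A was then at -0.13 and RPL15B at -0.40. RPL22A was at -0.16 and RPL22B at -0.43, and RPS22A at -0.17 and RPS22B at -0.42.

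**Figure D3:**
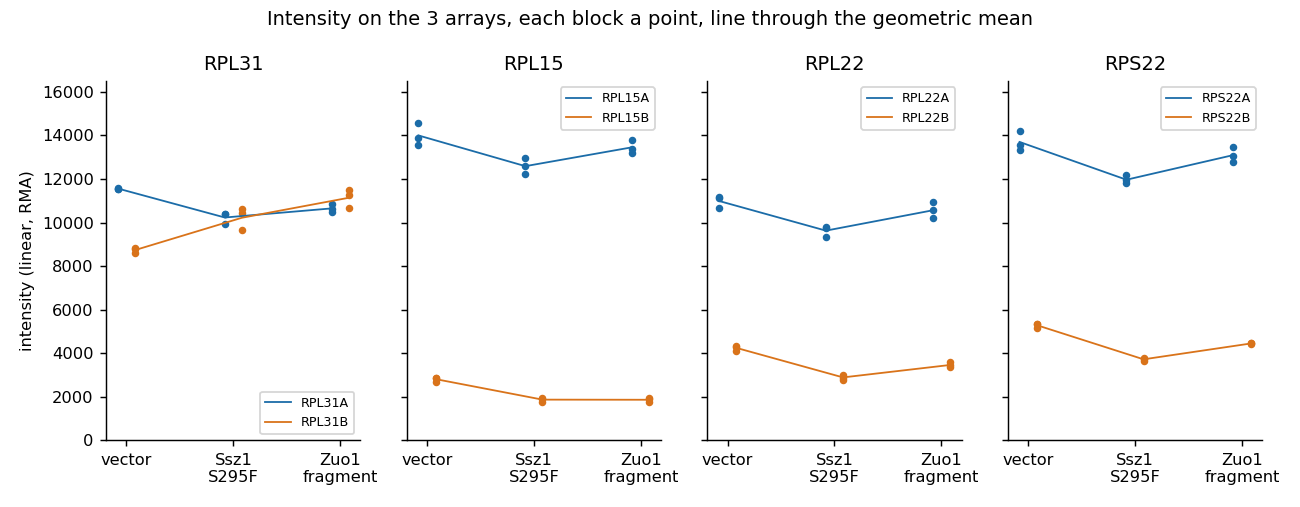
Linear intensity (vertical axis, from 0) on the 3 arrays (horizontal axis) for both copies of Rpl31, Rpl15, Rpl22 and Rps22, with 1 point per block and a line through the geometric mean of the blocks. RPL31B reads 8738, 10223 and 11142 and RPL31A reads 11565, 10234 and 10653 (vector, Ssz1 S295F, Zuo1 fragment), and the heights of different genes are not comparable since their probes differ.

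Most pairs agreed far better than these. The median size of the difference between copies was 0.045 for Ssz1 S295F and 0.043 for the Zuo1 fragment, while the median block SD of such a difference was 0.042 and 0.030. It reached 0.2 in 5 of 55 pairs with Ssz1 S295F (RPL15, RPL31, RPL22, RPS22 and RPS14) and in 3 pairs with the Zuo1 fragment (RPL15, RPL31 and RPL22). With Ssz1 S295F the RPS14 difference was 0.26 ± 0.18, so its place among these pairs is uncertain. The A copy had the higher ratio in 33 pairs and the B copy in 22 with Ssz1 S295F, and in 28 and 27 with the Zuo1 fragment. Median ratios were -0.18 for the A and -0.19 for the B copies with Ssz1 S295F, and -0.092 and -0.091 with the Zuo1 fragment. B copies had the wider range, of -0.59 to 0.23 with Ssz1 S295F against -0.33 to 0.0029 for A copies.

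Pairs annotated as more alike had smaller differences against vector, mostly of about the size of the block SD. For 12 pairs annotated as identical proteins the median size of the difference was 0.025 for Ssz1 S295F and 0.019 for the Zuo1 fragment. For 37 pairs annotated as nearly identical it was 0.050 and 0.046, and for 4 annotated as similar 0.068 and 0.060. For the 2 pairs with no such annotation, RPP1 and RPP2, it was 0.081 and 0.096. The median block SD was 0.056 and 0.029 for the identical pairs and 0.045 and 0.032 for the nearly identical ones. Between the constructs these 2 sets hardly differed, at 0.026 and 0.029. Pairs coded by like sequences can share probe signal, and the part of this in the small differences was not tested. Level moved with them too. Where both copies were outside the dimmest 33 members (30 pairs), no difference reached 0.2 and the median size was 0.036 and 0.028, and where a copy was among those 33 (25 pairs) it was 0.062 and 0.070.

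**Figure D4:**
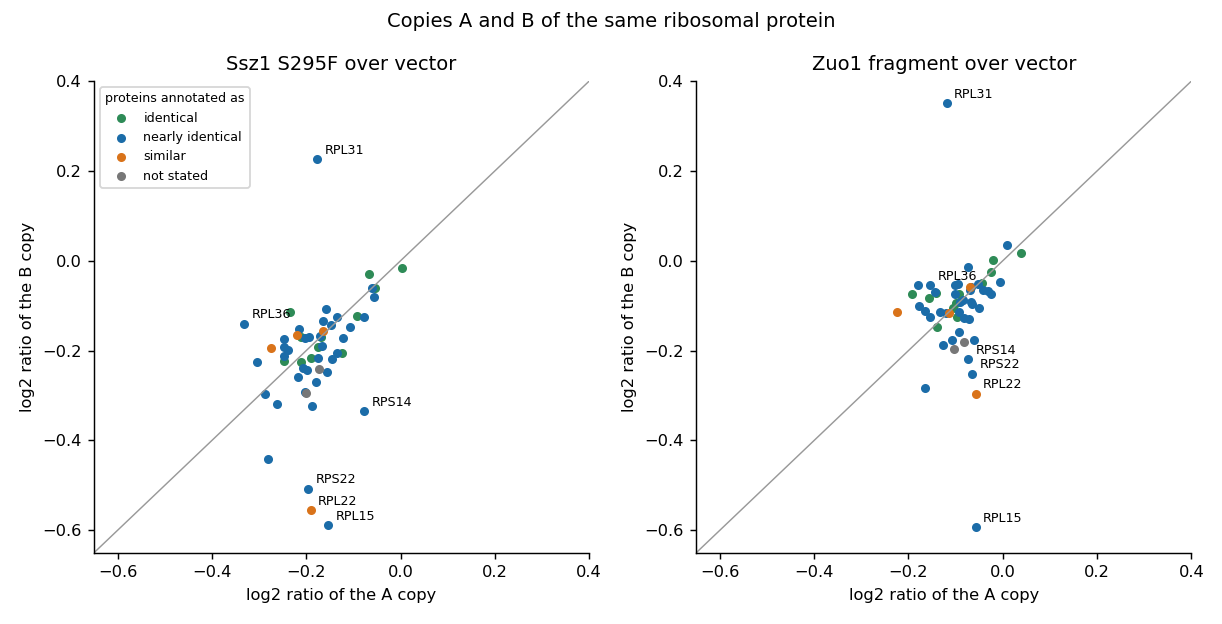
Log2 ratio to vector of the B copy (vertical axis) against that of the A copy (horizontal axis) for 55 pairs, coloured by how the array annotation relates the proteins, with the line of equal ratios in grey. Most pairs lie near the line, RPL31 lies above it by 0.40 and 0.47, and RPL15, RPL22 and RPS22 lie below it.

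Neighbouring members differed by about as much as members in general did with Ssz1 S295F. The members lay on 15 chromosomes, and 11 times a member was the next gene on the array to another member of a different family. The median size of the difference between such neighbours was 0.077 for Ssz1 S295F and 0.074 for the Zuo1 fragment. Over all 8460 pairs of members from different families it was 0.076 and 0.054. RPL13B and RPS16A, transcribed away from each other on chromosome XIII, differed by 0.0058 and 0.0078. RPS14B and RPS22A, which face each other on chromosome X, differed by 0.14 and 0.15, and RPS19B and RPL18B by 0.19 and 0.093.

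Proteins around the tunnel exit, where the complex of Zuo1 and Ssz1 works, were measured for 13 of 14 listed genes. Their medians were -0.19 for Ssz1 S295F and -0.093 for the Zuo1 fragment, close to those of all members, yet they held both RPL31B and RPL22B. Without those 2, the values ran from -0.25 for RPL26A to -0.13 for RPL19B with Ssz1 S295F. RPL25, which binds several factors at the exit, read 13796, 12116 and 13213 (-0.19 ± 0.051 and -0.062 ± 0.044). RPL39, a small protein inside the tunnel, was at -0.23 ± 0.046 and -0.12 ± 0.031. RPL17A was at -0.16 and -0.093, RPL17B at -0.25 and -0.16, RPL19A at -0.14 and -0.095, RPL26B at -0.21 and -0.069, and RPL35B at -0.20 and -0.082. Of the 13 genes, RPL31B was the only one above vector as deposited, while after the trend on span was subtracted 1 of the 13 was below 0 for Ssz1 S295F and 0 for the Zuo1 fragment.

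Regulators of these genes spread far more widely than the genes themselves. They were also dimmer and longer, with a median log2 level of 11.74 against 13.67 and a median span of 2475 bp against 795 bp. Their quartiles were -0.35 and 0.35 with Ssz1 S295F, where those of all genes were -0.39 and 0.13. With the Zuo1 fragment they were -0.39 and 0.21, against -0.32 and 0.082 for all genes. SFP1, an activator of ribosomal protein genes that answers to nutrients (YLR403W), read 2211 with vector, 6482 for Ssz1 S295F and 6029 for the Zuo1 fragment. Its ratios of 1.55 ± 0.079 and 1.45 ± 0.068 were past 2-fold and above 1 under each scaling tried. It was the only 1 of the 7 listed regulators past 2-fold, where 5.02% and 3.64% of all genes were past 2-fold higher. FHL1, which with Ifh1 binds these promoters, was at 0.51 ± 0.049 and 0.36 ± 0.013, and the general factor RAP1 at 0.19 ± 0.048 and 0.063 ± 0.045. IFH1, the coactivator, was lower at -0.59 ± 0.087 and -0.55 ± 0.052, and CRF1, which competes with it as a corepressor, was at -0.39 and -0.51. CRF1 turned to 0.096 with Ssz1 S295F when the trend on level was subtracted. HMO1 was at -0.31 and -0.19, turning above 0 when the trend on span was subtracted, and the kinase gene SCH9 was at -0.19 and -0.26.

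Dedicated chaperones guard particular new ribosomal proteins on their way to assembly. The genes of these chaperones had a median log2 level of 11.97, against 13.67 for the members. Their median span was 1164 bp against 795 bp. They were below vector in 7 of 7 genes in both comparisons, with medians of -0.26 and -0.12, where 3802 and 3898 of all 5777 genes were below vector. The count was 5 and 3 once the trend on span was subtracted, with YAR1 (0.037 and 0.025) and SQT1 (0.030 and 0.064) above 0 in both comparisons and TSR2 (0.037) and ACL4 (0.024) above 0 for the Zuo1 fragment. TSR2, for Rps26, read 3400, 2134 and 2793 (-0.67 ± 0.088 and -0.28 ± 0.066), and BCP1, for Rpl23, was at -0.54 and -0.29. YAR1, for Rps3, was at -0.39 and -0.30 and ACL4, for Rpl4, at -0.26 and -0.12. RRB1, for Rpl3, was at -0.20 and -0.12, SYO1, for Rpl5 and Rpl11, at -0.16 and -0.068, and SQT1, for Rpl10, at -0.048 and -0.011. None was past 2-fold. After centring on all genes, 1 of the 7 was above 0 for Ssz1 S295F and 4 for the Zuo1 fragment. The ribosome-bound proteins ASC1 (-0.096 and -0.012) and STM1 (-0.18 and -0.11) lay within the range of the members.

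**Figure D5:**
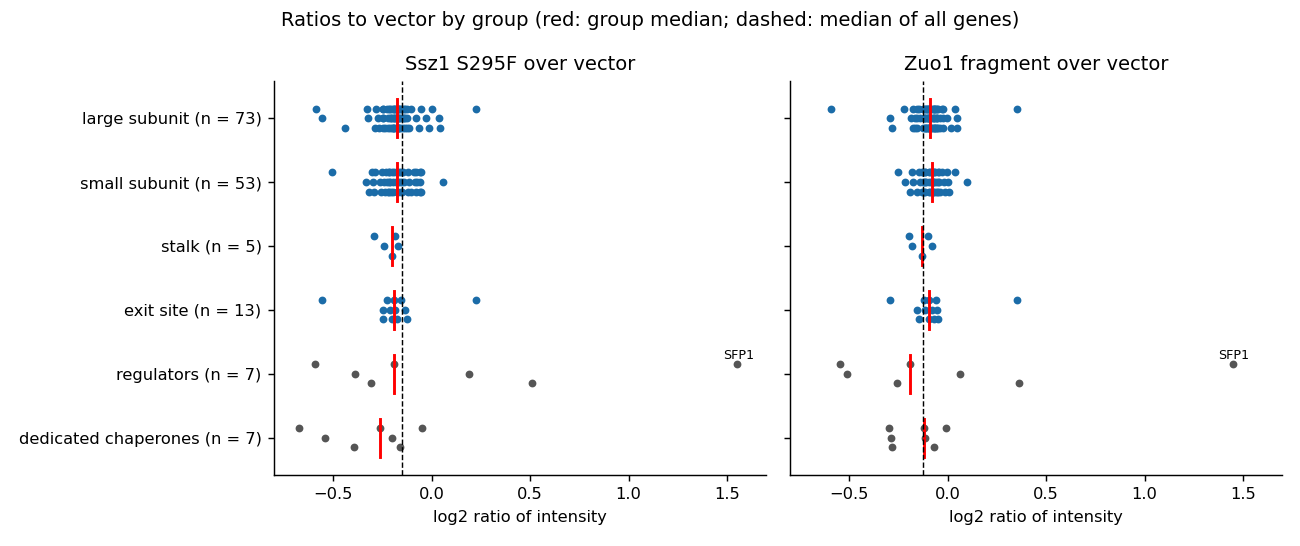
Log2 ratio to vector (horizontal axis) of each gene by group (vertical axis), members in blue, regulators and dedicated chaperones in grey, group medians in red and the median of all genes dashed. The medians of the member groups lie around -0.2 to -0.08. With Ssz1 S295F the large subunit runs from -0.59 to 0.23 and the regulators from -0.59 to 1.55, with SFP1 at the right.

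Between the constructs, members read slightly higher for the Zuo1 fragment than for Ssz1 S295F, at a median of 0.086, against 0.027 for all genes and 0.048 for the like genes. In each of the 3 blocks 115 of 131 members were higher, against 46.1% of all genes, and no member was lower in each block, against 30.9% of all genes. Averaged over blocks, 130 members and 225 of the 296 like genes were above 0. The largest ratios were those of RPL22B (0.26 ± 0.0040), RPS22B (0.26 ± 0.020), RPS7B (0.23 ± 0.027), RPL29 (0.19 ± 0.019), RPS27A (0.19 ± 0.016) and RPS17B (0.19 ± 0.020). After the trend on span was subtracted the median was 0.0070, and 72 members were above and 59 below 0. This comparison does not use the vector array but shares a construct array with each of the others.

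Of the other ribosome-related families, the mitochondrial one as deposited lay further below vector than the members and was dimmer. The nucleolar one as deposited lay near the members, but its genes were dimmer and longer. The 55 genes named MRP, MRPL or MRPS with a number, which encode the mitochondrial ribosome, had medians of -0.56 for Ssz1 S295F and -0.37 for the Zuo1 fragment, with a median log2 level of 11.06 against 13.67 for the members. The 53 genes named NOP, UTP or RRP with a number, which build ribosomes in the nucleolus, had medians of -0.14 and -0.068, an interquartile range of -0.33 to -0.027 for Ssz1 S295F that takes in the members' median, and a median log2 level of 12.32. Median spans were 660 bp for the mitochondrial and 1455 bp for the nucleolar family, against 795 bp for the members. Values of these families after the trend on span was subtracted are not given here. With 1 array per group these differences between families were not tested.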

How the data were processed

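RNA of 3 groups was measured on 3 arrays, 1 per group. The authors deposited intensity values on a linear scale after RMA (named in the submitters' processing notes, software not given in the sources used here), with 3 blocks for each gene and up to 8 probes per gene, per the file headers. Of the members, 120 had 8 probes, 7 had 7 and 4 had fewer. The deposited series-wide table held the mean intensity of the blocks (largest relative difference 3.33e-10) and served as an alternative.

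Intensities were put on the log2 scale with no pseudocount or filter (so all members were kept), averaged over blocks and subtracted between arrays, with pandas 2.3.3, and the calculation was tested on simulated data. Symbols came from RefSeq's R64 gene table by locus tag (5771 of 5777 genes). Coordinates are the array file's. Named were the 6 highest and 6 lowest members in each comparison with vector, the 4 pairs with the largest differences, the stalk, exit-site, regulator and chaperone genes and any member past 2-fold. Members, lists and alternatives were chosen with earlier results of these data known. RPL30, RPS7B, RPL29, RPS27A, RPS17B, the neighbouring genes and the mitochondrial and nucleolar families were named after their values were seen. No sequence was used.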

Additional observations from a re-analysis of the deposited data

How the results depend on the processing

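No paired analysis was possible because each group has 1 array, and no array could be left out. A value is said to have moved where it shifted by more than its SD over blocks, which is small, and values are log2 ratios. The median member with Ssz1 S295F over vector (-0.18) was -0.029 after centring on all genes, -0.15 after a lowess on mean level, -0.16 in the 19 members with no copy letter, -0.181 in block 2 and -0.182 in block 3, and it turned to 0.16 after a lowess on span. With the Zuo1 fragment over vector (-0.091) it was -0.080 after the lowess on level, -0.099 after quantile normalization, -0.085 in members with no copy letter and -0.088 in block 3, and it turned to 0.032 after centring and 0.19 after the lowess on span. Between the constructs (0.086) it was 0.059 after centring, 0.0070 after the lowess on span, 0.060 after that on level, 0.069 after quantile normalization, 0.094 in block 1 and 0.049 in members with no copy letter. The distance to genes of like level and length with Ssz1 S295F (0.0012) was -0.021 after the lowess on span, -0.0089 after that on level, -0.0062 in block 2, 0.023 for members with no copy letter and -0.032 in the narrower window of the 10th to 90th percentile, so it has no settled sign. With the Zuo1 fragment (0.038) it was 0.042, 0.031, 0.035 in block 1, 0.045 for members with no copy letter and 0.013 in the narrower window, and it stayed above 0. Counts of members past 2-fold stayed at 0 after centring, and past 1.5-fold they were 1 with Ssz1 S295F, 1 with the Zuo1 fragment and 0 between the constructs. Chosen after seeing the data, the median size of the difference between copies with Ssz1 S295F (0.045) was 0.055 without identical pairs and 0.036 without dim pairs, and with the Zuo1 fragment (0.043) it was 0.028 without dim pairs. The remaining 29 of 62 alternative values did not move. The number of arrays limits the precision of every value.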
